A study of Mus musculus with 4 samples.

Results

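The cells described here were lung fibroblasts picked out by 3 genes that mark the connective tissue sheath around large airways and vessels: Col14a1, a fibril-associated collagen, Pi16, a peptidase inhibitor, and Dpt, dermatopontin, a small matrix protein that binds decorin. A barcode was a member if it held at least 500 UMIs (unique molecular identifiers, 1 per captured transcript), at most 20% of them mitochondrial, at least 5 UMIs of Col1a1, Col1a2, Col3a1 and Dcn together and none of Ptprc, Cdh5 or Epcam, which mark leukocytes, endothelium and epithelium. Its Col14a1, Pi16 and Dpt UMIs also had to sum to at least 3 and to be no fewer than those of Npnt, Slit2 and Limch1, genes of alveolar fibroblasts. The rule found 122 of 19427 kept barcodes of both lung libraries, and 29563 barcodes were kept over all 4 libraries of the series. There were 108 members among 8342 barcodes of the TNF- lung, 1.29% (exact binomial interval at 95%, 1.06 to 1.56), and 14 among 11085 of the TNF+ lung, 0.126% (0.0691 to 0.212). Of the cells that passed the fibroblast steps of the rule, 449 and 52, members made up 24.1% (20.2 to 28.3) and 26.9% (15.6 to 41.0), so the intervals overlapped.

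TNF+ mice carried 1 copy of a human TNF gene (the TNF-Tg line, hTNFtg in the labels), and TNF- mice were littermates without it. All were female, 4 months old and on the C57BL/6 background, and neither group carried any other named allele or had any treatment. Tissue of 3 to 5 mice per genotype was pooled for lung and of 5 to 10 for synovium, digested, freed of red cells and sorted for live cells, so each genotype and tissue was 1 library. The transgene is human and was not measured with a mouse reference. With 1 library per genotype there is no replicate and no test, and every interval below covers counting error only.

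The lung libraries held 96120328 UMIs (TNF-) and 155989523 UMIs (TNF+). Members held 1560174 UMIs in TNF-, with a median of 12628.5 per cell (1208 to 46502), and 290410 in TNF+, with a median of 20361.5 (4704 to 36716). The step on Ptprc, Cdh5 and Epcam removed 40 TNF- and 13 TNF+ cells that met the rest of the rule, and all 13 of the latter held Ptprc. At the threshold, 5 TNF- and no TNF+ members had a sum of exactly 3, while 3 and 2 fibroblasts stopped at a sum of 2. The number of TNF+ members depended on the limits: it was 5 with the study's limit of 5000 genes per cell, 8 without the cells of highest doublet score and 24 if 1 UMI of the excluded genes was allowed. The lung libraries shared 21 barcodes, none of them a member.

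Adventitial fibroblasts line bronchovascular bundles, make collagen and decorin and are known as a source of chemokines and complement. They are usually marked by Pi16, Clec3b, Ly6a and Cd34, and they differ from the lipid-handling alveolar fibroblasts that lie between air sacs. TNF acts through its receptors on NF-kB, a transcription factor that is held in the cytoplasm by Nfkbia and its relatives. NF-kB then raises chemokines, adhesion molecules and also its own inhibitors.

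The markers did not bear out the single name adventitial for all members. Pi16 was found in 30 of 108 TNF- members, Clec3b (tetranectin) in 46, Ly6a in 39 and Dpp4, a surface peptidase of adventitial fibroblasts, in 4. Among the 14 deeper TNF+ members these 4 genes were found in 7, 9, 7 and 0 cells. Col14a1 and Dpt, which the rule used, were found in 96 and 99 TNF- members. In 34 TNF- members Dpt was the only one of the 3 rule genes at 3 or more UMIs. Hhip, a hedgehog-binding protein that the rule did not use, was found in 84 of 108 TNF- members, with a median of 36.5 UMIs per cell and a highest value of 183. Saa3, serum amyloid A3 and a given marker, was nearly absent from TNF- members, with 3 UMIs in 3 cells, and was higher in alveolar fibroblasts of the same library, at 625 UMIs per 1000000 UMIs of the class (CPM) against 1.92. Those alveolar UMIs lay in 9 of 303 cells, 2.97% (1.37 to 5.56).

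**Figure D1:**
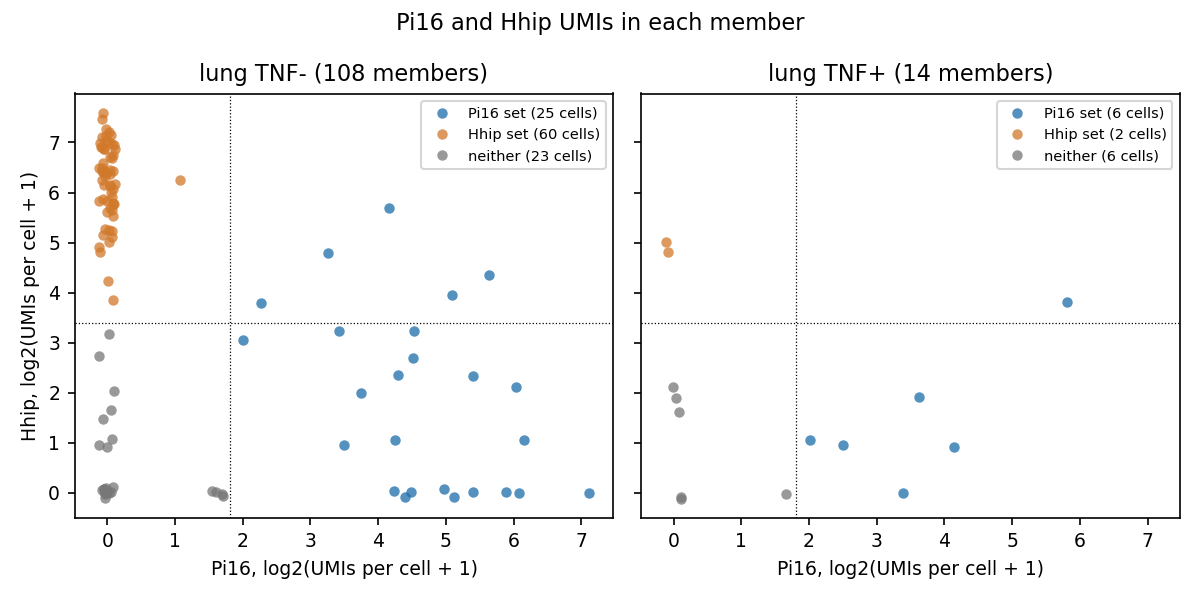
Pi16 UMIs (horizontal) against Hhip UMIs (vertical) in each member of the TNF- and TNF+ lung, both as log2(UMIs + 1), with points spread slightly so that they do not hide each other. Dotted lines mark 3 Pi16 and 10 Hhip UMIs. TNF- members form a Hhip-rich column of 60 cells and a Pi16-rich spread of 25, and TNF+ members hold 2 and 6 such cells.

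The members therefore stayed named by their genes. Members with at least 3 Pi16 UMIs were called the Pi16 set, those with at least 10 Hhip and fewer than 3 Pi16 UMIs the Hhip set, and the others neither. These thresholds were chosen after the values were seen, so differences between the sets are descriptions. Over 8242 genes counted in both, 12.4% were 2-fold higher in the Hhip set and 9.88% in the Pi16 set of the TNF- lung. In TNF- the sets held 25, 60 and 23 members, and 5 members of the Pi16 set also had at least 10 Hhip UMIs. In TNF+ they held 6, 2 and 6. The Hhip set was 55.6% of TNF- members (45.7 to 65.1) and 14.3% of TNF+ members (1.78 to 42.8), and the intervals did not overlap. The Pi16 set was 23.1% (15.6 to 32.2) and 42.9% (17.7 to 71.1). Of the 23 TNF- members in neither set, 3 were rich in Msln and Upk3b, which mark mesothelium, and no TNF+ member was.

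The Pi16 set carried the adventitial markers, and the Hhip set held few UMIs of them. Clec3b stood at 2620 CPM in the Pi16 set and 3.04 CPM in the Hhip set of the TNF- lung, which was 1510 and 2 UMIs. Ly6a, a stem cell antigen, was at 1256 and 10.6 CPM, Cd34 at 614 and 6.08, and Serpinf1, a secreted inhibitor of vessel growth, at 1111 and 4.56. Dcn, decorin, was at 7711 and 617 CPM. Dpt was alike, at 878 CPM in the Pi16 set, 751 in the Hhip set and 800 in neither, so this rule gene did not part them. Genes highest over the Hhip set in this comparison also included Gpc3, a glypican, Fbln2, fibulin 2, Apod, a lipid carrier, and Cd248, endosialin.

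Several genes known from smooth muscle or Wnt signalling were higher in the Hhip set than in the Pi16 set. Aspn, asporin, stood at 4355 CPM against 288 in the Pi16 set, and Enpp2, which makes lysophosphatidic acid, at 2004 against 27.8. Lgr6, a receptor for R-spondins, had 230 UMIs in the Hhip set and none in the Pi16 set. With 3 UMIs over the set taken for 0 it was 67.2-fold higher, and the lower limit of its log2 ratio was 5.76. Wnt5a, a Wnt ligand, was at 578 and 121 CPM, and Myh11, smooth muscle myosin, at 312 and 3.47. Acta2, smooth muscle actin, was at 958 and 205 CPM, but at 1548 in cells of neither set and 2065 in alveolar fibroblasts, and alveolar fibroblasts had 565 CPM of Myh11. Of 20 smooth muscle and pericyte genes 4 were 2-fold higher and 11 lower in all TNF- members than in alveolar fibroblasts. The endothelin receptor Ednrb, the muscarinic receptor Chrm2 and the smooth muscle coactivator Myocd each had no UMI in the Pi16 set. That list holds Hhip and Aspn, and without them its summed UMIs had a median of 27.5 per cell in the Hhip set (3 to 327) and 15 in the Pi16 set (2 to 51), at median depths of 10675 and 21736 UMIs per cell. These Lgr6, Ly6a, Cd34, Serpinf1 and set-defining values were chosen for the text after they were seen.

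**Figure D2:**
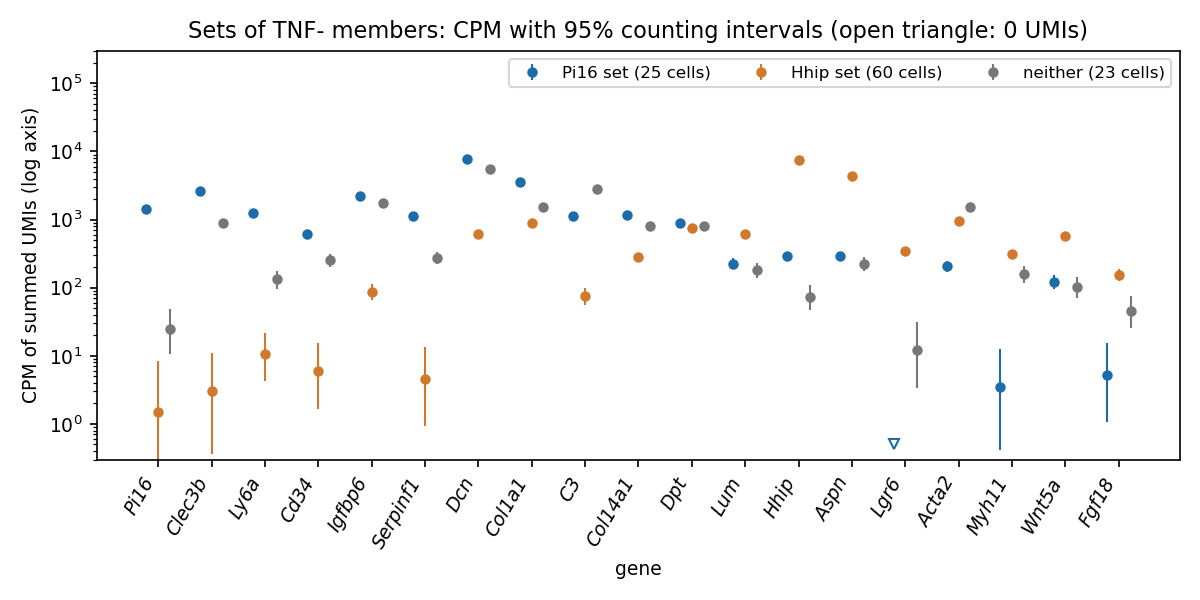
CPM of summed UMIs (log axis) of 19 genes in the 3 sets of TNF- members, with bars for exact Poisson intervals at 95% and an open triangle for 0 UMIs. Clec3b, Ly6a, Cd34 and Serpinf1 are under 11 CPM in the Hhip set, Hhip and Aspn are at 7598 and 4355 there, and Dpt lies between 751 and 878 in all 3.

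Against the 303 alveolar fibroblasts of the TNF- lung, members were marked by genes of both sets. Over 12164 genes counted (at least 20 UMIs over both classes), 6.75% were 2-fold higher in members and 6.56% were 2-fold lower with an interval that left out equality. Of 32 counted adventitial genes that the rule did not use, 18 were higher and 2 lower, and all 20 alveolar genes it did not use were lower. Scara5, a ferritin receptor, was highest by the bound of its interval, at 140 CPM in members and 0.847 in alveolar fibroblasts (log2 ratio 7.37, 5.99 to 9.25). It came from the Pi16 set (241 CPM) and from neither (242), with no UMI in the Hhip set. Kctd16, a subunit that partners GABA-B receptors, was at 577 and 11.9 CPM (5.60) and came from the Hhip set (1340 CPM against 20.8 in the Pi16 set). Hhip itself was at 3326 and 115 CPM (4.86, 4.73 to 4.99). Tgfbi, a matrix protein that TGF-beta raises, was at 486 and 15.5 CPM (4.97), from all sets. Clec3b separated the classes by less, at 1156 and 434 CPM (1.41), and 216 of 303 alveolar fibroblasts had a UMI of it.

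The main comparison asked how TNF+ members differed from TNF- members. Over 9587 genes with at least 20 UMIs in both libraries together, 449 were 2-fold higher in TNF+ with an interval off equality (4.68%) and 665 were 2-fold lower (6.94%), with a median log2 ratio of -0.09. Such genes are called higher or lower below. Of the 449, 80 had at least 50% of their TNF+ UMIs in 1 cell and 206 were still called without that cell. Of the 665, 250 were also 2-fold higher in the Hhip set than in the Pi16 set of TNF- lung. Among all 8242 genes counted between those sets, 12.4% were. Both calls used the same TNF- members, so the overlap is in part built in and is a description only. The observed share of the Hhip set was not the same in both libraries. Ratios are therefore given for all members and, for many genes, also for the Pi16 set (25 and 6 cells, chosen by Pi16 itself). In the Pi16 set 4.43% of 6049 genes were called higher and 6.88% lower. Counted as UMIs per cell instead of CPM, every ratio over all members lay 0.52 higher on the log2 scale, since TNF+ members were deeper.

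C3, the central complement protein, had the most UMIs of the complement genes in TNF+ members and was called higher. The gene (ENSMUSG00000024164) lies on the minus strand of mouse chromosome 17 from 57203970 to 57228136 (GRCm38, GENCODE vM21). It had 1607 UMIs in TNF- members and 1925 in TNF+ members, 1030 and 6629 CPM, a log2 ratio of 2.69 (2.59 to 2.78) and 6.44-fold. A UMI was found in 46 of 108 TNF- and 13 of 14 TNF+ cells. After every cell was thinned to 500 UMIs the shares were 15.7% (9.45 to 24.0) and 64.3% (35.1 to 87.2), against 0.547% and 3.63% of lymphocytes, which should lack C3 (unthinned 5.01% and 31.0%, at median depths of 8491 and 9474 UMIs). In the Pi16 set C3 ranged from 0 to 4449 CPM over 25 TNF- cells, with a median of 716, and from 1393 to 14027 over the 6 TNF+ cells, with a median of 7279. The ranges overlapped while the medians were far apart. Summed, the Pi16 set gave 1131 and 8298 CPM (2.87, 2.74 to 3.01). The cells in neither set gave 2777 and 4753 CPM (0.78), and without the 3 TNF- cells rich in Msln and Upk3b 1941 and 4753 CPM (1.29, 1.12 to 1.47). In neither set 1 TNF- cell stood at 13912 CPM, near the highest TNF+ cell. The Hhip set was at 74.5 CPM in TNF-, and its 2 TNF+ cells were at 5063 and 7005. C3 RNA in droplets of other cells was small beside this, at 0.170 and 1.66 UMIs per lymphocyte against 14.9 and 138 per member. The cell with most C3 held 26.8% of the TNF+ UMIs, and without it the ratio was 2.43.

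**Figure D3:**
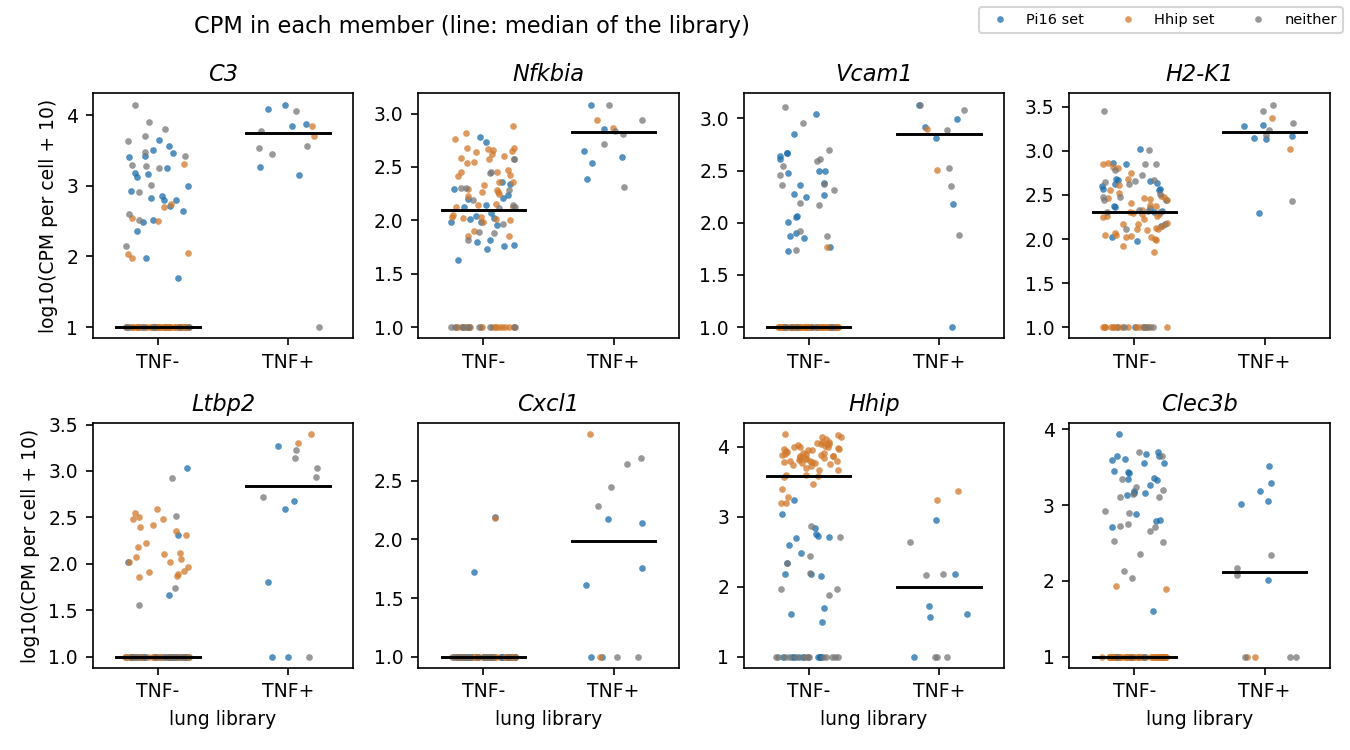
CPM of 8 genes in each member, as log10(CPM + 10), with 1 point per cell coloured by set and a line at the median of the library (108 TNF- and 14 TNF+ cells). C3, Nfkbia, Vcam1, H2-K1, Ltbp2, Cxcl1 and Clec3b have higher medians in TNF+, and Hhip a lower one. For C3 and Vcam1 the TNF- median is at 0, and 8 and 1 of the 60 TNF- cells of the Hhip set have a UMI.

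Of 14 counted complement genes, 4 were called higher and 2 lower, and in the Pi16 set 3 and 1 of 11. C1ra and C1s1, the proteases of the classical pathway, stood at 231 and 334 CPM in TNF- and 534 and 809 in TNF+ (1.21, 0.93 to 1.49, and 1.28, 1.05 to 1.50). Both differed by less than 2-fold in the Pi16 set (0.57 and 0.63). Cfb, the factor B of the alternative pathway, had 156 and 52 UMIs, 100 and 179 CPM, and was not called (0.84, 0.36 to 1.30). Cfb was called higher in the Pi16 set, at 144 and 304 CPM (1.08, 0.52 to 1.62), and in cells of neither set it went the other way (-1.88). Cd55, a decay accelerator, was called higher at 57 and 24 UMIs (1.18), with 2.89 and 1.95 UMIs per lymphocyte, more than per member. C7, a part of the membrane attack complex, was called lower at 78 and 4 UMIs (-1.86, -3.77 to -0.45). Clu, an inhibitor of that complex, was at 143 and 27.5 CPM (-2.38) over all members and at 17.4 and 20.7 in the Pi16 set.

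Among 8 counted acute-phase genes, 4 were called higher and none lower. Cp, ceruloplasmin, a copper-carrying iron oxidase, was at 165 CPM in TNF- and 947 in TNF+ (2.52, 2.27 to 2.77), found in 79 of 108 and 13 of 14 cells, with a like ratio in the Pi16 set (2.63). Alveolar fibroblasts had 515 and 532 CPM of Cp (0.05). Steap4, an iron and copper reductase, was at 51.9 and 172 CPM (1.73). Saa3 and Serpina3g, a serpin, rested on 1 cell each: 94.2% of the 69 Saa3 UMIs and 77.5% of the 40 Serpina3g UMIs of TNF+ members lay in their top cells. The Saa3 cell was in the Hhip set, and the 6 TNF+ cells of the Pi16 set had 2 Saa3 UMIs.

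Among lists with at least 10 counted genes, NF-kB feedback genes and targets had the largest share called higher. Of 20 counted genes 15 were higher and none lower, with a median log2 ratio of 1.70, and in the Pi16 set 10 of 14 were higher with a median of 1.61. Nfkbia, the inhibitor that binds NF-kB, was at 160 and 647 CPM (2.01, 1.73 to 2.29) and at 139 and 526 in the Pi16 set. All 14 TNF+ members had it, from 3 to 40 UMIs per cell, against 0 to 15 over 108 TNF- members. Tnfaip3 (A20), a deubiquitinase that stops the signal, was found in 7 of 108 and 10 of 14 cells (5.13 and 131 CPM, 4.67, 3.55 to 5.98). Nfkbie, a further inhibitor, was found in 6 and 11 cells (4.75), Tnip1, the partner of A20, in 29 and 12 (2.39), and Birc3, an inhibitor of apoptosis, in 36 and 12 (2.58). Sod2, mitochondrial superoxide dismutase, was at 59.6 and 286 CPM (2.26). Lymphocytes express these regulators too, with 4.07 and 6.34 Nfkbia UMIs per cell, so for them lymphocytes give no level of free RNA.

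Both adhesion molecules for leukocytes were called higher. Vcam1, the ligand of integrin VLA4, was at 151 and 737 CPM (2.29, 2.02 to 2.56) and found in 38 of 108 and 13 of 14 cells. In TNF- it came from the Pi16 set and neither, and the 60 cells of the Hhip set held 1 UMI. In the Pi16 set alone it was at 245 and 733 CPM (1.58). Icam1, the ligand of LFA1, was at 89.1 and 275 CPM (1.63, 1.21 to 2.04), and at 86.8 and 242 in the Pi16 set.

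The promoters of C3, Nfkbia and Cxcl1 are shown because these genes stand for the complement, feedback and chemokine results. They are RefSeq sequences of GRCm38.p6 from 250 bases before to 50 after the start, 5' to 3' on the gene's strand, at chr17:57228087-57228386 (minus), chr12:55492598-55492897 (minus) and chr5:90890995-90891294 (plus). Capitals mark a match on either strand to an NF-kB motif (GGGA, any base, then TTTCC or TTCCC) or to TTGCNNAA (C/EBP, bound by another factor of the acute-phase response).
C3: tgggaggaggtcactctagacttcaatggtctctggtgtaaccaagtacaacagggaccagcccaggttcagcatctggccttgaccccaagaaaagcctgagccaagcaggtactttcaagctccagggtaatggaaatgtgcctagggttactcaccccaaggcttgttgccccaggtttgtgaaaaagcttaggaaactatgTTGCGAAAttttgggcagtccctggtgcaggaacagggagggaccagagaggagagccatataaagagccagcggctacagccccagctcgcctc
Nfkbia: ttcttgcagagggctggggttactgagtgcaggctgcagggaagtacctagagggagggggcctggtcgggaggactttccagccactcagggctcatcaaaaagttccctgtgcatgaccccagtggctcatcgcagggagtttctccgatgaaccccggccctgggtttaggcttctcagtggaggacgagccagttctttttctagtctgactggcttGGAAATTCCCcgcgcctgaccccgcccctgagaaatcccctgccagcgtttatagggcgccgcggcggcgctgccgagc
Cxcl1: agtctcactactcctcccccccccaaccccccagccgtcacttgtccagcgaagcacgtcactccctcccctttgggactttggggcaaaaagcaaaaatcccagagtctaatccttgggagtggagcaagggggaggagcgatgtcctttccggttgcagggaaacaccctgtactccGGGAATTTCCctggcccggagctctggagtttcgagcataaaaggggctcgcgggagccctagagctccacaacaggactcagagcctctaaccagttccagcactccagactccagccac
The C3 match (C/EBP) began at position -45, the Nfkbia match at -29 and the Cxcl1 match at -71, counted from the start. Over 32851 promoter entries, 0.411% held the NF-kB motif that ends in TTTCC, 0.359% the one that ends in TTCCC and 10.8% TTGCNNAA, so a C/EBP match is common. By gene, 4 of the 12 NF-kB list genes called higher with an entry held an NF-kB match (33.3%: Nfkbia, Nfkb2, Tnip1 and Bcl3), beside 0.873% of all 27025 genes with an entry. That list was made of known NF-kB targets, so the share says nothing about these cells. Cxcl1 was 1 of 4 called chemokine genes with a match, and none of 4 complement and 4 acute-phase genes had one. Promoters of H2-K1, Tnfaip3, Pi16, Hhip and Ltbp2 were searched as well and held no match, and that of Saa3 held a C/EBP match at -99. The motif TTCNNNGAA, known from STAT factors and held by 8.30% of entries, was in none of the promoters searched for single genes. A match is a description of letters, not a bound site.

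Chemokine genes followed among those lists, 8 of 12 higher and 2 lower, but in the Pi16 set 3 of 10 were higher and 3 lower. Ccl19, which draws lymphocytes and dendritic cells through CCR7, was at 42.3 and 255 CPM (2.59, 2.09 to 3.09), and at 26.0 and 346 in the Pi16 set. Cxcl16, a membrane-bound ligand of CXCR6, was at 55.8 and 255 CPM (2.19). Cxcl1, a neutrophil ligand of CXCR2, was found in 3 of 108 and 9 of 14 cells with 5 and 43 UMIs (5.53, 4.20 to 7.22). No cell held more than 37.2% of the TNF+ UMIs of any of these 3. Ccl2, the monocyte ligand of CCR2, had 22 and 148 UMIs (5.18) in 3 and 5 cells, with 62.2% of the TNF+ UMIs in 1 cell, and Cxcl5 had 1 and 27 UMIs, 77.8% of the latter in 1 cell. Cxcl12, which keeps leukocytes by CXCR4, was at 226 and 513 CPM (1.19), while the Pi16 set stood at 347 and 360 (0.05). Cxcl10, an interferon-induced ligand of CXCR3, was called lower at 520 and 16 UMIs (-2.60), but 98.7% of the TNF- UMIs lay in 1 of 4 cells and without that cell the ratio was 3.59.

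Among 24 counted cytokines and growth factors, 6 were called higher and 2 lower. Tnfsf13b (BAFF), a survival factor of B cells, was at 73.1 and 337 CPM (2.21, 1.80 to 2.61), at 48.6 and 332 in the Pi16 set (2.77), and at 149 and 110 in alveolar fibroblasts (-0.44). Il33, an alarmin known from adventitial stroma, was found in 14 of 108 and 11 of 14 cells (36.5 and 134 CPM, 1.88). Its level was called higher in the Pi16 set, at 50.3 and 111 CPM (1.14, 0.16 to 2.07), and in cells of neither set the ratio was -0.08 (-1.35 to 1.05). Vegfc, a growth factor of lymphatic vessels, was at 55.1 and 248 CPM (2.17), with 38.9% of the TNF+ UMIs in 1 cell. Csf1, the macrophage growth factor, was at 76.3 and 179 CPM (1.23), and at 115 and 131 in the Pi16 set. Kitl, the ligand of KIT, was called lower at 75 and 4 UMIs (-1.80). None of 16 cytokine receptor genes was called either way over all members, and Il6st, the shared receptor of the IL-6 family, was at 217 and 344 CPM (0.66).

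Class I antigen presentation genes were among those called higher. Of 37 counted genes of the joint list, 14 were called higher and 6 lower (8 and 6 of 32 in the Pi16 set). H2-K1, a class I heavy chain, was at 329 and 1780 CPM (2.43, 2.26 to 2.61), and at 331 and 1473 in the Pi16 set. B2m, the light chain, was at 602 and 2452 CPM (2.02, 1.88 to 2.17). Members of TNF+ lung held 36.9 H2-K1 UMIs per cell, against 19.1 per lymphocyte, a cell that makes it. The members were deeper, with a median of 20361.5 UMIs against 9474 per lymphocyte of that lung. After thinning to equal depth, H2-K1 was found in 42.9% of these members (17.7 to 71.1) and 52.0% of these lymphocytes (50.2 to 53.8). H2-Q7 was found in 11 of 108 and 11 of 14 cells (4.50). Ifit1, an interferon-induced RNA sensor, was called lower at 156 and 2 UMIs (-3.86), and 53.2% of its TNF- UMIs lay in 1 cell. The class II gene H2-Ab1 had 20 and 24 UMIs (2.69), but 0.185 and 1.71 per member stood beside 10.7 and 14 per lymphocyte.

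RNA of leukocytes was higher in TNF+ members as well. The summed myeloid markers had a median of 2 UMIs per TNF- cell (0 to 10) and 17.5 per TNF+ cell (4 to 38), and the lymphocyte markers 1 (0 to 5) and 9 (3 to 18). The myeloid medians of the Pi16 set were 3 and 17.5. Of 15 myeloid markers 1 had no UMI in TNF- members and 1 had none in TNF+ members, and of 13 lymphocyte markers 2 and 4 had none. Their part in the ratios was not tested. Lyz2, the macrophage lysozyme, was found in all 14 TNF+ members (64.1 and 434 CPM), and so was the antibody light chain Igkc (62.8 and 399 CPM). A member held 9 Lyz2 UMIs in TNF+, below the 63.4 per lymphocyte. High doublet scores were found in 14 of 108 and 6 of 14 members. In TNF+ they were in none of the 6 cells of the Pi16 set, both of the Hhip set and 4 of the 6 in neither. In TNF- they were in 3 of 25, 2 of 60 and 9 of 23 cells of these sets, so cells of neither set had them most often among TNF- members. Without the cells of high score C3 stood at a log2 ratio of 2.89, Nfkbia at 1.83 and H2-K1 at 2.45. Endothelial and epithelial sums differed little, with medians of 2 and 2.5 and of 7.5 and 8.5 UMIs.

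**Figure D4:**
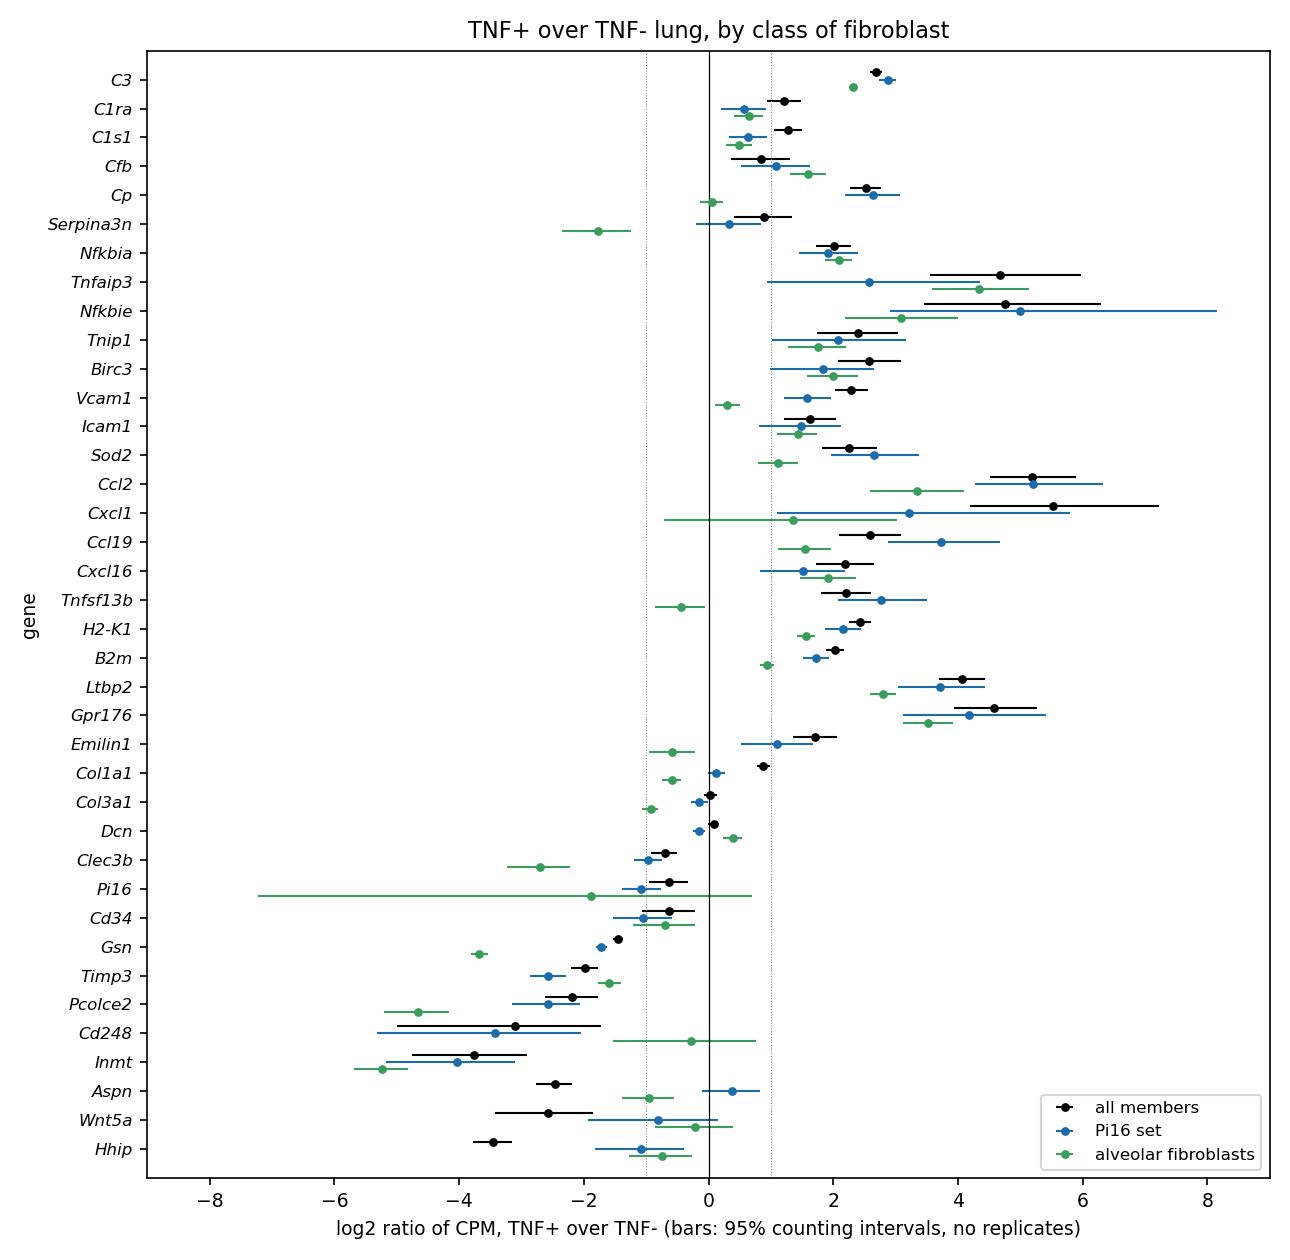
Log2 ratio of CPM, TNF+ over TNF-, for 38 genes in all members, in the Pi16 set and in alveolar fibroblasts, with bars for counting intervals at 95% and pale lines at 2-fold. Genes from C3 to Gpr176 lie right of 0 in members, with Cp and Vcam1 far less so in alveolar fibroblasts, and genes from Gsn to Inmt lie left of 0. Aspn lies left of 0 in all members and right of it in the Pi16 set.

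The main matrix genes differed little in the Pi16 set, and less evenly in cells of neither set. Of 21 counted collagens 1 was called higher and 2 lower, with a median log2 ratio of 0.03. Col3a1, type III collagen, was at 3366 and 3440 CPM (0.03, -0.07 to 0.13), and Dcn at 4262 and 4507 (0.08, -0.01 to 0.17). Col1a1, type I collagen, was at 1993 and 3657 CPM (0.88), but at 3536 and 3852 in the Pi16 set (0.12). In cells of neither set Col1a1 was called higher, at 1502 and 4161 CPM (1.47), and Dcn lower, at 5518 and 2385 (-1.21). All of these were genes of the fibroblast step of the rule. Of 17 proteoglycan genes none was higher and 2 were lower. Col12a1, a collagen of dense tissue, was called lower at 116 and 44.8 CPM (-1.37), and in members with under 10 Hhip UMIs its ratio was 0.47.

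Ltbp2, a protein of elastic fibres that binds fibrillin, was the matrix gene with the highest ratio. It had 82 UMIs in 31 of 108 TNF- cells and 255 in 11 of 14 TNF+ cells, 52.6 and 878 CPM (4.06, 3.70 to 4.44). The Pi16 set stood at 41.6 and 546 CPM, and without its top cell the ratio was 3.85 over all members. Emilin1, an elastic fibre glycoprotein, was at 117 and 382 CPM (1.71) and found in all 14 TNF+ cells. Postn, periostin, had 27 and 31 UMIs (2.62) in 7 and 4 cells. Gpr176, an orphan receptor, was found in 6 of 108 and 12 of 14 cells, at 16.0 and 382 CPM (4.58, 3.94 to 5.26). Over the 30 counted elastic fibre and adhesive genes, 3 were higher and 6 lower, among the latter Tnxb, tenascin X, at 535 and 179 CPM (-1.58) and Thbs1, thrombospondin 1, at 799 and 227 (-1.81, and -0.39 in the Pi16 set).

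Genes of the adventitial list were called lower more often than higher. Of 35 counted genes of the adventitial list 2 were called higher and 10 lower, with a median of -0.63. In the Pi16 set 2 of 33 were higher and 15 lower, with a median of -0.97. The list holds the rule genes Col14a1, Pi16 and Dpt, none of them called over all members. These ratios were not counted without them. In members with fewer than 10 Hhip UMIs, where 4.88% of 7478 genes were called higher and 6.97% lower, none of 34 was higher and 21 were lower. Gsn, gelsolin, which cuts actin, was at 12753 and 4680 CPM (-1.45, -1.53 to -1.37), and at 25086 and 7614 in the Pi16 set (-1.72). Pcolce2, a helper of procollagen cleavage, was at 785 and 172 CPM (-2.19, and -2.58 in the Pi16 set). Cd248 had 185 and 4 UMIs (-3.11) and Ly6c1 149 and 1 (-4.79). The markers Pi16, Clec3b and Cd34 were less than 2-fold apart over all members (-0.63, -0.70 and -0.63), and the sign for Pi16 and Cd34 changed when 1 UMI of the excluded genes was allowed (0.08 and 0.17). In members with fewer than 10 Hhip UMIs all 3 were called lower (-2.22, -1.43 and -1.31), and in the Pi16 set, which Pi16 itself chose, they stood at -1.08, -0.97 and -1.05. Dpp4, at 65 UMIs in 4 TNF- cells, had none in TNF+ members. With 3 UMIs over the group for 0 it was 4.03-fold lower, and the upper limit of its log2 ratio was -1.67. Of the 65 UMIs 56 lay in cells of neither set and 9 in the Pi16 set, and without the 3 cells rich in Msln and Upk3b no direction could be read (0.78 with the same 3 UMIs for 0).

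Genes of other lists were lower as well. Timp3, an inhibitor of metalloproteinases on the list of proteases and inhibitors, was at 2509 and 634 CPM (-1.99, and -2.57 in the Pi16 set). Inmt, a methyltransferase on the alveolar and lipid lists, was at 511 and 37.9 CPM (-3.76, and -4.04). Fmo2, a flavin monooxygenase on the lipid list, was at 1165 and 475 CPM (-1.29, and -0.98).

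Hhip, Aspn, Wnt5a, Lgr6 and Pde10a, all higher in the Hhip set than in the Pi16 set, were lower over all members. Hhip was at 3326 and 303 CPM (-3.46, -3.78 to -3.15). Over 108 TNF- cells it ranged from 0 to 183 UMIs and over 14 TNF+ cells from 0 to 33, so that no TNF+ cell reached the TNF- median of 36.5. In the Pi16 set it was at 292 and 138 CPM (-1.08). Aspn was at 1989 and 358 CPM (-2.47) over all members and at 288 and 373 in the Pi16 set (0.37). Wnt5a was at 310 and 51.7 CPM (-2.58, and -0.81 in the Pi16 set). Lgr6 had 234 and 4 UMIs. Enpp2, also of the Hhip set, went the other way in summed UMIs, at 873 and 1494 CPM (0.78). Of its TNF+ UMIs 43.5% lay in 1 cell, and without that cell the ratio was 0.05 (-0.15 to 0.25). Its median per cell was lower in TNF+, at 935 and 223 CPM, while in the Pi16 set its sums stood at 27.8 and 83.0 CPM (1.58). Pde10a, a cyclic nucleotide phosphodiesterase, was found in 63 of 108 cells and 1 of 14, with 518 and 1 UMIs (-6.59, and -2.65 in the Pi16 set). Of 30 counted BMP, TGF-beta and Wnt modulators 9 were called lower and none higher, but 5 and 3 of 24 in the Pi16 set. The 2 TNF+ cells of the Hhip set had 1705 and 2335 CPM of Hhip, against 1553 to 15163 over the 60 TNF- cells of that set.

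Proteases and inhibitors had 1 higher and 4 lower of 24, lipid and retinoid genes 2 and 5 of 21, prostaglandin and adenosine genes 3 and 4 of 14, and myofibroblast genes 5 and 4 of 18. Immediate-early genes, which answer tissue digestion, had 2 higher and 1 lower of 22, and in the Pi16 set 8 and 1 of 21. In members with fewer than 10 Hhip UMIs 0 were higher and 5 lower of 20. Single cells held 91.2% of the TNF+ UMIs of Atf3 and 52.4% of those of Dusp1, both of this list and called higher in the Pi16 set. Stress and metallothionein genes had 4 lower of 21, with Mt2 at 253 and 2 UMIs (-4.56), 72.7% of the former in 1 cell. Of 8 counted mesothelial genes all were lower and 7 had no UMI in TNF+ members, where Msln had 209 UMIs in 3 TNF- cells.

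**Figure D5:**
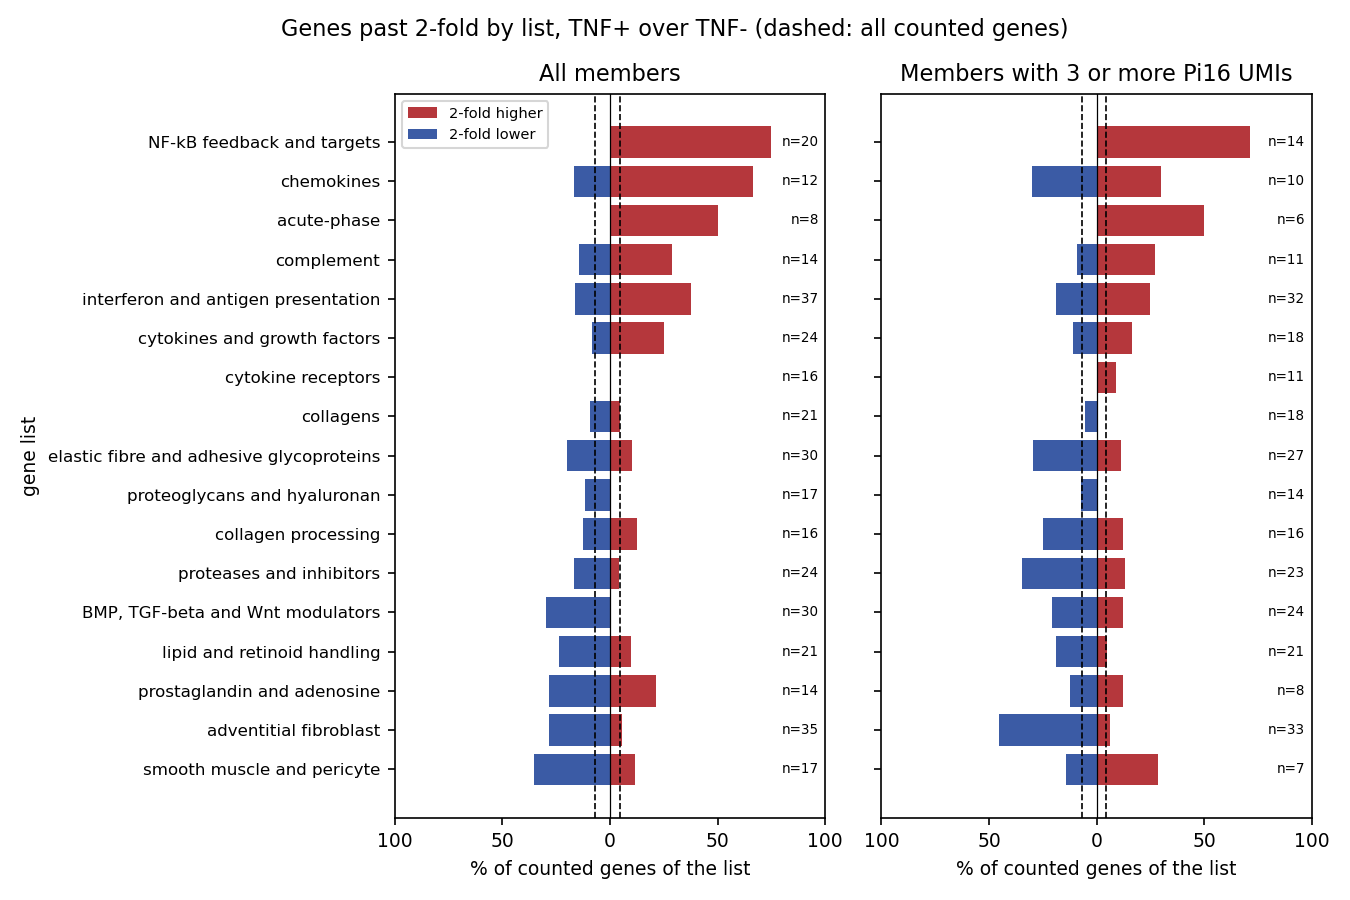
Share of the counted genes of 17 lists called 2-fold higher (red) or lower (blue) in TNF+, for all members and for the Pi16 set, with the number counted at the right and dashed lines at the shares over all genes. NF-kB feedback and targets stand at 15 of 20 and 10 of 14 higher. Adventitial genes, rule genes included, stand at 10 of 35 and 15 of 33 lower.

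Alveolar fibroblasts of the same lungs (303 and 27 cells) and synovial fibroblasts chosen by the same rule (3225 and 395 cells) were set beside these values. In alveolar fibroblasts 8.46% of 11759 genes were called higher and 6.68% lower, and in synovial ones 9.20% and 26.8% of 16786, with a median log2 ratio of -0.40. The C3 ratio was 2.69 in members, 2.32 in alveolar fibroblasts (867 and 4341 CPM) and 1.42 in synovial ones. Nfkbia stood at 2.01, 2.09 and 0.83, H2-K1 at 2.43, 1.56 and 1.42, and Ltbp2 at 4.06, 2.80 and 7.67. Cp stood at 2.52, 0.05 and -0.01, and with 1 library each that difference was not tested. Vcam1 stood at 2.29, 0.30 and 3.52. Saa3 had its large ratio in the synovium (11.23), beside 6.95 in members from 1 cell and 1.63 in alveolar fibroblasts. Gsn was lower in each, at -1.45, -3.68 and -2.63. Of the NF-kB list, 11 of 21 genes were called higher and 1 lower in alveolar fibroblasts, and 9 and 1 of 24 in synovial ones. The adventitial list was called lower more often than higher in these classes too. In alveolar fibroblasts 7 of 34 were higher and 14 lower (median -1.01), and in synovial ones 2 and 24 of 35 (median -1.39). These counts hold Col14a1 and Dpt, which the rule used and which were called lower in alveolar fibroblasts.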

How the data were processed

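Lung and synovium of TNF- and TNF+ mice were profiled by 10x 3' single-cell RNA-seq, 1 pooled library each. The authors deposited raw UMI counts per gene and barcode, made with Cell Ranger 7.0.1 on build mm10, per the submitters' processing notes and the study's methods. Introns are counted by default in that version, the kit's counts depend on digestion and cell capture, and each matrix lists 32285 genes.

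UMIs were summed over members of a library and given as CPM with exact Poisson intervals. Ratios have conditional binomial intervals and shares have Clopper-Pearson intervals, all at 95% and for counting error only. A gene was counted with at least 20 UMIs over both groups and called at 2-fold with an interval off equality. No pseudocount was used. A count of 0 was set to 3 UMIs for bounds. UMIs per lymphocyte (Cd3e, Cd3d, Cd79a and Ms4a1 at least 2, Ptprc at least 1) stood for free RNA. Doublets were kept, and as an alternative the top Scrublet scores (0.8% per 1000 barcodes) were removed. Replicates and p-values did not exist. The rule, the gene lists and the members were chosen with earlier results of these data known. Named genes were the rule's genes, the given markers, the 15 highest and 15 lowest by interval bound among those 3 times over lymphocytes, up to 6 genes of each of 27 lists and the 10 highest over alveolar fibroblasts. Genes compared between the sets of members, and Nfkbia, Cfb, Icam1, Sod2, Lgr6, Ly6a, Cd34 and Serpinf1, were added after their values were seen. Some genes that this rule names are not reported here. Alternatives changed the limits on genes, UMIs and mitochondrial share, the rule, the scaling and the sets. The procedure was tested on simulated Poisson counts without variation between cells or mice, so that test covers counting error only. Python 3.11.15, scipy 1.17.1, pandas 2.3.3 and scanpy 1.11.5 were used.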

Additional observations from a re-analysis of the deposited data

Results flagged for a closer look

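Named genes called in opposite directions in lung members and in synovial fibroblasts chosen by the same rule are listed here. Values are log2 ratios of TNF+ over TNF-, lung first. Such genes were not counted over all genes, of which 9.20% were called higher and 26.8% lower in synovial fibroblasts. With 1 library per genotype and tissue the difference was not tested. Lower in lung and higher in synovium were Actg2 (-4.20 and 1.77), Aqp1 (-3.68 and 4.78), Aspn (-2.47 and 1.76), Bnip3 (-2.76 and 2.34), Clu (-2.38 and 1.79), Col12a1 (-1.37 and 3.44) and Sfrp2 (-2.01, a bound from 3 UMIs, and 2.26). In the Pi16 set Aspn and Clu stood at 0.37 and 0.26, Actg2 had no UMI in either group, and Bnip3 (8 and 0 UMIs) and Col12a1 (10 and 1 UMIs) were not counted there, while Aqp1 (-3.44) and Sfrp2 were called lower. Aqp1, a water channel, was at 442 and 34.4 CPM in lung members, found in 21 of 108 and 2 of 14 cells.

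Higher in lung and lower in synovium were Ccn1 (1.89 and -1.76), Cd55 (1.18 and -2.33), Ces1d (1.31 and -4.95), Rgs5 (2.05 and -1.73), Rtn1 (3.90 and -2.21), Steap4 (1.73 and -1.08) and Tmem200a (5.01 and -2.85). All 17 Rgs5 UMIs of TNF+ members lay in 1 cell, and so did 55.2% of the Ces1d UMIs, without which its ratio was 0.26 (-0.72 to 1.14). Tmem200a had 55.6% of its TNF+ UMIs in 1 cell and stood at 4.02 without it. Leukocyte genes did so as well: Cd74 (2.14 and -1.17), H2-Aa (2.93 and -1.28) and Igkc (2.67 and -2.69), of which lymphocytes of the TNF+ lung held 772 Igkc UMIs per cell against 8.29 per member.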

How the results depend on the processing

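No paired analysis was possible because each genotype and tissue was 1 library, and for the same reason no replicate could be left out. The 14 TNF+ members and the few UMIs behind single genes limit precision, intervals cover counting error alone, and differences between mice cannot be seen. Several alternatives were chosen after seeing the data: the Pi16 set, members with fewer than 10 Hhip UMIs, members of neither set, members without those rich in Msln and Upk3b, and each gene without its top cell. The cause of each change below was not tested, apart from the smaller number of cells.

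TNF+ members numbered 5 with the study's limits of 200 to 5000 genes, 24 with 1 UMI of the excluded genes allowed and 8 with high doublet scores removed. Genes called higher numbered 1369 by UMIs per cell, 1899 with lymphocyte UMIs subtracted, 252 at a minimum of 50 UMIs per gene, 746 at a minimum of 1 UMI and 268 in the Pi16 set. Genes called lower numbered 371 with the study's limits, 246 by UMIs per cell, 416 in the Pi16 set and 384 in members of neither set.

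Over 88 named genes, 72 had no turned sign in any alternative that was not chosen after seeing the data. A sign was counted as turned only where the main interval left out equality. A group without a UMI was given 3 UMIs, so a turned sign there came from that setting and shows no direction. Every turned sign of Dpp4, Msln and Upk3b below, and of the mesothelium median, is of this kind, since TNF+ members had no UMI of these genes. Col14a1, Dpt, Col3a1 and Dcn, whose main intervals held equality, fell as low as -0.69, -0.61, -0.60 and -0.08 in those alternatives. With the study's limits on genes the sign turned for Ccl19 (log2 ratio -0.10), Cxcl12 (-0.02), Cxcl10 (5.49), Ifit1 (2.68), Gas6 (-0.96), Dpp4 (0.79), Clec3b (0.90), Pi16 (2.34), Cd34 (0.30), Ly6a (2.20), Mt2 (1.58), Klf4 (0.38), Msln (0.17) and Upk3b (0.63), and for the list medians of mesothelium (0.40) and proteases (0.20). With 1 UMI of the excluded genes allowed it turned for Pi16 (0.08), Cd34 (0.17) and the elastic fibre median (0.01), and with each member weighted equally for Pi16 (0.10). By UMIs per cell the elastic fibre median was 0.25 and that of proteases 0.02. With lymphocyte UMIs subtracted Dpp4 and Id2 each stood at 2.43. Both groups were then set to 3 UMIs, so this value holds only the ratio of summed member UMIs and shows no direction. Dpp4 stood at 0.79 where the rule sum had to be 2 times larger. Cxcl10 was at 2.54 and Enpp2 at -1.95 without high doublet scores, and Cxcl10 at 3.60 without the deepest 5% of cells.

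In the Pi16 set the sign turned for Clu (0.26), Aspn (0.37), Kctd16 (1.73) and the smooth muscle median (0.09). Dpp4, with 9 and 0 UMIs there, stood at 0.41 only because 3 UMIs were put in for 0. In members with fewer than 10 Hhip UMIs it turned for Il6st (-0.07), Col12a1 (0.47), Aspn (0.03), Lgr6 (0.64), Kctd16 (0.85) and the cytokine receptor median (-0.01). In members of neither set it turned for Cfb (-1.88), Steap4 (-0.46), Cxcl10 (3.92), Il33 (-0.08), Gas6 (-0.17), Il6st (-0.14), Col12a1 (1.18), Lox (-0.08), Ly6c1 (1.09), Entpd2 (0.51), Lgr6 (0.51) and Pde10a (0.51). The values of Ly6c1 and Pde10a in neither set used 3 UMIs for 0 as well and show no direction. Dpp4 was at 0.78 without members rich in Msln and Upk3b, also from 3 UMIs for 0. Without the top cell Cxcl10 was at 3.59 and Rgs5 at -0.37.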
